A study of Mus musculus with 16 samples.

Results

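Synaptic vesicle and neuronal genes were followed in 16 mouse lung tumors by RNA sequencing, as a set of 37 genes for vesicle proteins, the release machinery, neuronal cytoskeleton, adhesion molecules and neuronal RNA-binding proteins that small cell lung tumors are known to express. The 37 members were a named list, found by symbol among the 23284 gene symbols counted in every tumor, and all 37 passed the filter on low counts that left 14825 genes for testing. Map2 stands in the files under its older symbol Mtap2. The tumors form 2 groups of the RP model, 9 labelled Max null (genotype Max -/-) and 7 labelled Max wild-type, all on the mixed strain background 129/SvJ; C57BL/6. In both groups the genes were deleted by giving Ad.CMV.Cre virus, an adenovirus that carries Cre recombinase, by the intratracheal route, so the deletion of the RP alleles is shared and the labels set the groups apart by Max alone. RP is a common name for conditional Rb1 and Trp53 alleles, the mouse model of small cell lung cancer, although the labels leave RP unexplained. The CMV promoter is active in any infected cell type, so the virus does not select the neuroendocrine cell of origin. No age is given. Whether each tumor is from its own mouse is not stated, so the p-values describe variation among these tumors, part of which may be technical.

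Nerve terminals release transmitter when a vesicle protein of the VAMP family zips up with syntaxin and SNAP-25 in the plasma membrane, a step triggered by calcium through synaptotagmins and prepared by Munc13, RIM and complexin proteins. Neuroendocrine cells of the lung use the same machinery to secrete peptides and amines, and synaptophysin and NCAM1 are standard diagnostic markers of small cell lung cancer. MAX is the obligate partner of MYC proteins at E-box DNA, and REST is a repressor that keeps many neuronal genes silent outside neurons by binding the RE1 element. Max null against Max wild-type tumors asks how these genes stand when MAX is lost, which is not a test of MYC proteins alone.

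The promoter windows of the members were searched for the letters of these elements, and sites elsewhere in or around the genes were not searched. RefSeq promoter windows (GRCm38.p6, 250 bases before to 50 after a transcript start) were on hand for 26 of the 37 members, with 42 windows. The E-box CACGTG, which reads the same on both strands, was found for 1 of the 26 members, Sv2b, in 1 of its 4 windows, and in 7.15% of all 32851 windows. The left part of the RE1 element, CAGCACC or GGTGCTG on the other strand, was found for 4 members (Dner, Syn1, Tubb3 and Unc13a) and in 7.14% of all windows. Its right part, GGACAG or CTGTCC, was found for 10 members and in 22.2% of windows, and the joined form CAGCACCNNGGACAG, with CTGTCCNNGGTGCTG on the other strand, for 0 members and in 0.0365% of windows. The shares of all windows are per window and several members have more than 1 window, so the counts are not rates. These are matches of letters, not sites shown to be bound. The joined form was searched as exact letters and is rare in all windows, so its 0 among 42 windows says little. Forms with a changed letter were not searched. In the Syn1 window printed below, the first CAGCACC is followed by gcggtcag, 1 letter from the joined form. Printed 5′ to 3′ on the gene's strand are the 250 bases before 3 of the starts. In the window of Sv2b the CACGTG match begins 193 bases before the start (chr7:75302610-75302859, minus strand). In that of Syn1 the CAGCACC matches begin 230 and 176 bases before the start (chrX:20920919-20921168, minus strand). In that of Tubb3 GGTGCTG begins 121 bases before the start (chr8:123411303-123411552, plus strand). Tubb3 was the cytoskeleton member with the largest SD of log2 CPM among null tumors (1.95). Capitals mark the matches.
Sv2b: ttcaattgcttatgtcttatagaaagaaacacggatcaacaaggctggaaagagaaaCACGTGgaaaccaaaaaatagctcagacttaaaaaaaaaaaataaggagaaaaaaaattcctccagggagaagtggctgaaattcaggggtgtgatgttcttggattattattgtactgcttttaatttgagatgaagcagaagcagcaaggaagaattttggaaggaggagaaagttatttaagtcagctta
Syn1: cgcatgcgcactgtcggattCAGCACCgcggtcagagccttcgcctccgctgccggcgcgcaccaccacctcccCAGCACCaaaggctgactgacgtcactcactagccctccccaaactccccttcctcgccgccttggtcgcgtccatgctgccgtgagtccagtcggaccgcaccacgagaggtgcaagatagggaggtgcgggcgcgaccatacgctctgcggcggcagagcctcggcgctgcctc
Tubb3: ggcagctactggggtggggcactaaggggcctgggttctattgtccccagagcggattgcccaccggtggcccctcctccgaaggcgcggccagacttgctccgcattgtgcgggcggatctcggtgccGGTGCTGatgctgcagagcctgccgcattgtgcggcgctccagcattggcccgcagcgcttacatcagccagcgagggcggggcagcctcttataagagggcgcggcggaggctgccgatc

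The libraries held 8.66 to 15.1 M reads in genes, and levels are given as CPM, counts per M reads in genes after TMM scaling. Over all 14825 genes, edgeR's quasi-likelihood F test called 2378 (16%) at a Benjamini-Hochberg adjusted p of 0.05. Max itself was at a lowest, median and highest of 64.2, 75.9 and 83.5 CPM in the Max null tumors and 52.4, 67.7 and 75.9 CPM in the wild-type tumors (log2 difference 0.18, SE 0.11, adjusted p = 0.281). Reads from any exon outside a deleted part and from other cells of the tumor enter this count, so it does not check the genotype labels. The share of reads aligned to more than 1 place was 9.17% to 11.8% in the null tumors and 12.3% to 22.2% in the wild-type tumors, without overlap, and its part in the group differences cannot be told apart from genotype. It was highest in wild-type tumors 2, 4 and 7. Neuroendocrine markers were present in both groups. Insm1, Chga, Chgb, Ddc and Nkx2-1 were present in all 16. Neurod1 had at most 7.78 CPM in null and 22.3 CPM in wild-type tumors.

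None of the 37 members passed the test between the groups. The count was 0 called higher against a background of 7.4% of all genes, and 0 called lower against 8.64%. At an unadjusted p under 0.05 stood 5 members (Syp, Syt7 and Unc13a above 0, Rab3b and Stmn2 below), against 32.8% of all genes. DESeq2 called 2 members, Syp higher and Stmn2 lower, where it called 22.5% of all genes, and limma-voom called 0 members and 16.5% of all genes. No member had groups without overlap, which 1.56% of all genes did. Fitted log2 differences, Max null minus Max wild-type, were above 0 for 22 members and below 0 for 15, with a median of 0.24 against -0.03 over all genes. That median moved with the fit and was 0.01 with limma-voom, 0.04 with length and GC offsets, 0.05 without wild-type tumors 2, 4 and 7, 0.13 without null tumor 5, and -0.02, with 21 of 37 below 0, with the share of multiply aligned reads as a covariate. The 95% intervals reached past a 2-fold difference in at least 1 direction for 24 members and stayed within 2-fold for 13. Member differences are given on the log2 scale with edgeR's adjusted p over all 14825 genes. In whole tumors, fewer cells of a type and less RNA per cell cannot be told apart.

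**Figure D1:**
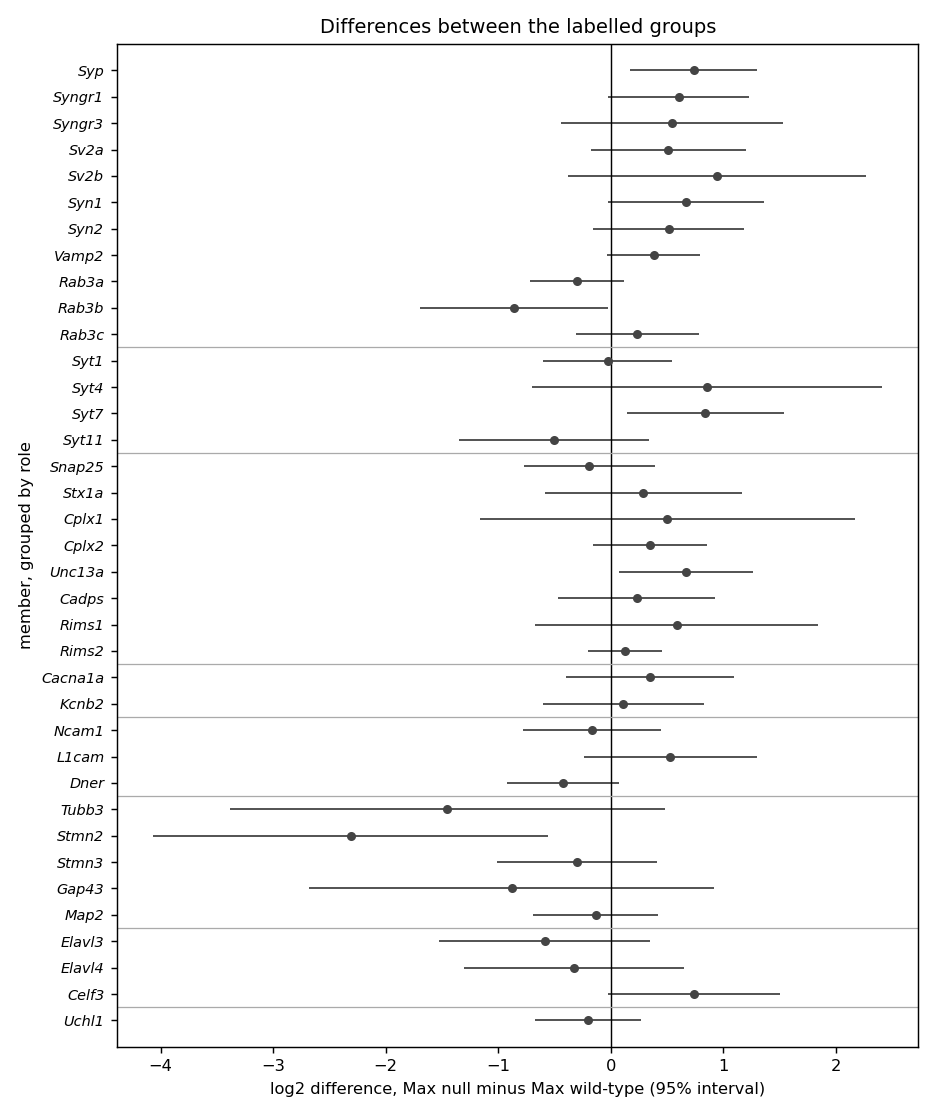
Fitted log2 difference (Max null minus Max wild-type, horizontal axis) of each of the 37 members, grouped by role from vesicle proteins at the top to Uchl1 at the bottom; points are estimates and lines are 95% intervals. Vesicle and release genes lie mostly right of 0 and the 5 cytoskeleton genes all lie left of 0, but none passed the adjusted threshold.

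The vesicle proteins leaned towards higher levels in the null tumors, with 9 of 11 above 0 and a median log2 difference of 0.52, and none of the 11 passed the test. The median was 0.24 with the share of multiply aligned reads as a covariate and 0.52 without wild-type tumors 2, 4 and 7, again with 9 of 11 above 0. With length and GC offsets it was 0.34, with 8 of 11 above 0. Syp encodes synaptophysin, a major vesicle membrane protein. It was at a lowest, median and highest of 109, 192 and 372 CPM in the null tumors and 75.8, 123 and 227 CPM in the wild-type tumors. Null tumors 4, 7 and 9 were the highest and wild-type tumor 7 the lowest of all 16, and the groups overlapped. The difference was 0.74 with an SE of 0.27 (adjusted p = 0.0664), from 235 ± 86.9 (SD, n = 9) to 140 ± 55.3 CPM (SD, n = 7). In the reference annotation 33.8% of the exon bases of Syp also lie in the antisense gene Gm14703, and the strand setting of the counts is not given in the sources used here, so its level is uncertain.

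Syngr1, Syngr3, Sv2a and Sv2b varied among null tumors by more than they differed between the groups. Their SDs of log2 CPM in the null group were 0.64, 1.21, 0.73 and 1.78. Among wild-type tumors Sv2b had an SD of 0.71, under its difference between the groups. Syngr1 and Syngr3 encode synaptogyrins, relatives of synaptophysin, and differed by 0.60 (adjusted p = 0.169) and 0.54 (adjusted p = 0.441). Sv2a and Sv2b encode the SV2 glycoproteins of vesicles, and differed by 0.51 (adjusted p = 0.286) and 0.94 (adjusted p = 0.312). Sv2b ran from 1.27 CPM in null tumor 4 to 49.5 CPM in null tumor 5, while the wild-type tumors ran from 2.81 to 12 CPM. That range among null tumors takes in every wild-type value.

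Synapsins tether vesicles to the cytoskeleton. Syn1 was at 27.3 to 108 CPM in null and 12 to 52.5 CPM in wild-type tumors, a difference of 0.67 (SE 0.33, adjusted p = 0.167), and Syn2 differed by 0.52 (adjusted p = 0.275). Vamp2 encodes synaptobrevin, the vesicle SNARE, and had the highest level per length among vesicle proteins, 101 CPM per kb of transcript. Its level lay between 223 and 303 CPM (median 241) in the 9 null tumors and between 97.9 and 341 CPM (median 174) in the 7 wild-type tumors. All 9 null tumors were above the wild-type median, yet wild-type tumor 2 was the highest of all 16. The difference was 0.38 (SE 0.20, adjusted p = 0.186).

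The Rab3 GTPases, which guide vesicles to release sites, did not share a direction. Rab3b was at 42.4, 106 and 145 CPM (lowest, median, highest) in null and at 40.5, 142 and 377 CPM in wild-type tumors, a difference of -0.86 (SE 0.40, adjusted p = 0.142) that was -0.37 without wild-type tumors 2, 4 and 7 and -0.02 with the share of multiply aligned reads as a covariate. Rab3a, the main neuronal form, had 23.8, 38.7 and 53.3 CPM in null and 30.0, 48.7 and 77.9 CPM in wild-type tumors, a difference of -0.30 (SE 0.20, adjusted p = 0.301). Rab3c had 80.2, 187 and 245 CPM in null and 88.5, 123 and 285 CPM in wild-type tumors, a difference of 0.24 (SE 0.26, adjusted p = 0.558). For all 3 the groups overlapped. Per kb of transcript the paralogs stood at 39.2 CPM (Rab3b), 28.5 CPM (Rab3a) and 19.5 CPM (Rab3c) over all tumors.

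Of the synaptotagmins, 2 of 4 lay above 0, with a median of 0.41, and none of the 4 passed the test. Syt7 encodes the high-affinity calcium sensor of slow release and was the most abundant per length, 58.1 CPM per kb. It was at a lowest, median and highest of 302, 392 and 1344 CPM in null tumors and 110, 254 and 452 CPM in wild-type tumors. All 9 null tumors lay above the wild-type median, null tumor 4 stood far above the rest, and wild-type tumor 3 lay above 8 of the 9 null tumors. The difference was 0.84 (SE 0.33, adjusted p = 0.0868), from 477 ± 329 CPM (SD, n = 9) to 266 ± 105 CPM (SD, n = 7).

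Syt4, a synaptotagmin of dense-core vesicles that lacks normal calcium binding, was at 14.1, 35.1 and 458 CPM in null and 3.51, 31.9 and 110 CPM in wild-type tumors (lowest, median, highest). Its difference of 0.86 (SE 0.74, adjusted p = 0.442) rested on null tumor 4 and was -0.26 without it. Syt1, the fast calcium sensor of neurons, was at 110 to 324 CPM in null and 125 to 312 CPM in wild-type tumors, a difference of -0.03 (SE 0.27, adjusted p = 0.956). Syt11, a related protein that does not bind calcium, was at 60.9, 137 and 497 CPM in null and 80.7, 279 and 435 CPM in wild-type tumors, a difference of -0.50 (SE 0.40, adjusted p = 0.404). Syt4 and Syt7 thus lay above 0 and Syt1 and Syt11 below, without a passed test in either direction. The reference places 14.5% of the exon bases of Syt4 under an antisense gene, Gm26658, so Syt4 is uncertain in the same way as Syp.

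**Figure D2:**
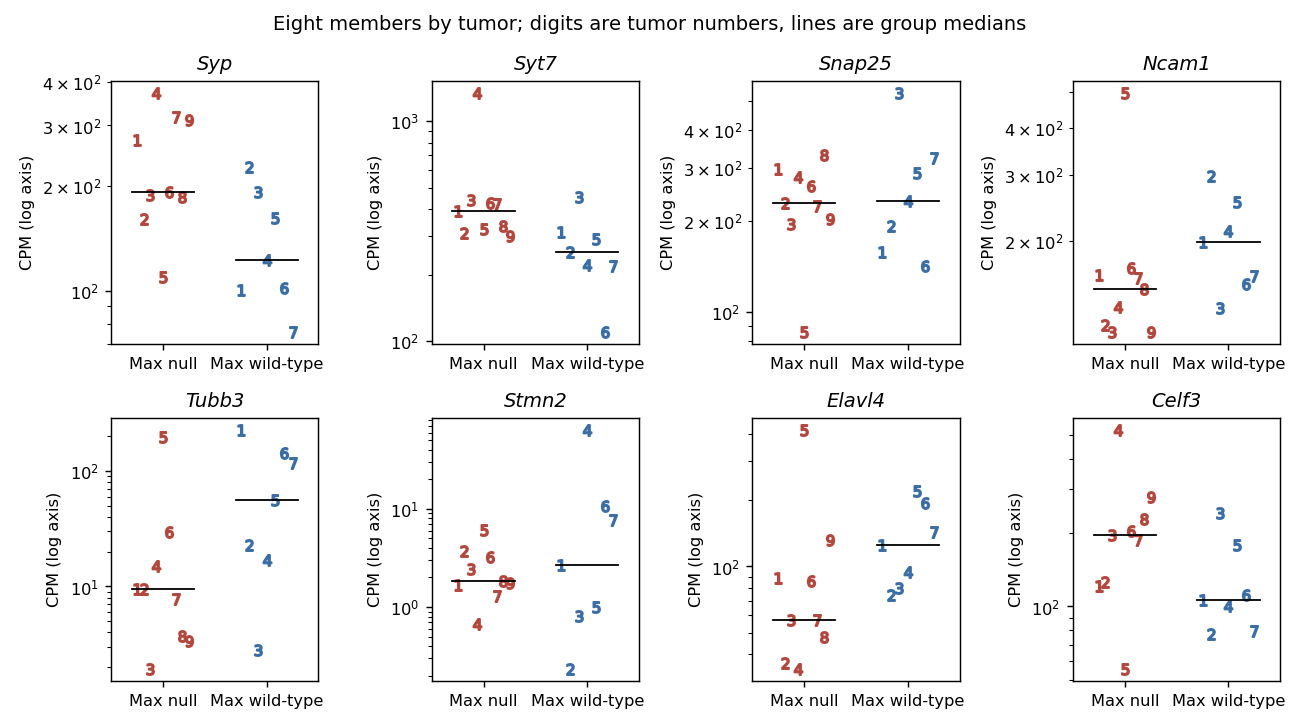
CPM (vertical axes, log scale) of 8 members in each tumor; digits are tumor numbers, red for Max null and blue for Max wild-type, and lines are group medians. Null tumor 4 is highest for Syp, Syt7 and Celf3, and null tumor 5 is highest for Ncam1 and Elavl4 and lowest for Snap25 and Celf3.

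Plasma membrane SNAREs and release factors had 7 of 8 members above 0 with a median of 0.32, and none of the 8 passed the test. That lean did not hold without wild-type tumors 2, 4 and 7, when 4 of 8 lay above 0 and the median was 0.06. With the share of multiply aligned reads as a covariate 1 of 8 lay above 0 and the median was -0.20. That share does not overlap between the groups, so this fit cannot separate it from genotype. The exception below 0 was Snap25, the plasma membrane SNARE partner of syntaxin. It was at 85.7, 229 and 331 CPM in null and 142, 232 and 531 CPM in wild-type tumors (lowest, median, highest), a difference of -0.19 (SE 0.28, adjusted p = 0.668). Its medians were within a few CPM of each other, and null tumor 5 and wild-type tumor 3 lay apart from their groups. Stx1a, syntaxin 1A, differed by 0.29 (adjusted p = 0.662), with wild-type tumor 1 at 3.75 CPM and wild-type tumor 2 at 66.7 CPM.

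Complexins clamp and promote SNARE fusion. Cplx2 was the most abundant member of this group per length, 203 CPM per kb, and over all members only Uchl1, at 322 CPM per kb, was higher. Its lowest, median and highest were 838, 962 and 1469 CPM in null and 485, 876 and 1448 CPM in wild-type tumors, a difference of 0.35 (SE 0.24, adjusted p = 0.325). Cplx1 was far lower, 7.25 CPM per kb, and ran from 0.69 to 74.2 CPM among null and from 1.62 to 41.8 CPM among wild-type tumors. Its interval, -1.17 to 2.17, does not limit a difference of either sign.

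Unc13a encodes Munc13-1, which primes vesicles for fusion. It was at 130, 142 and 238 CPM in null and 41.1, 111 and 167 CPM in wild-type tumors (lowest, median, highest). Wild-type tumors 2, 4 and 7 were at 41.1, 42.0 and 51.9 CPM and the other 4 wild-type tumors at 111 to 167 CPM, of which tumors 5 and 6 lay among the null values and tumors 1 and 3 below them. The difference was 0.67 (SE 0.28, adjusted p = 0.110) over all tumors and 0.18 (adjusted p = 0.624) without those 3, in which multiple alignment was also most frequent among wild-type tumors. With that share as a covariate the difference was -0.04 (adjusted p = 0.967). Cadps, the priming factor of dense-core vesicles, differed by 0.23 (adjusted p = 0.666). Rims1 and Rims2, scaffolds of the release site, differed by 0.59 (adjusted p = 0.523) and 0.13 (adjusted p = 0.603). Rims2 was the most even of the release factors, 76.8 to 110 CPM in null and 53.5 to 109 CPM in wild-type tumors, and its interval, -0.20 to 0.46, lies within 2-fold.

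Both ion channels among the members lay slightly above 0, and both lay below 0 without wild-type tumors 2, 4 and 7, with length and GC offsets or with the share of multiply aligned reads as a covariate. Cacna1a, the P/Q-type calcium channel that opens to trigger release, was at 71.8, 180 and 390 CPM in null and 70.6, 122 and 314 CPM in wild-type tumors (difference 0.35, SE 0.35, adjusted p = 0.519). Kcnb2, a delayed-rectifier potassium channel, was the lowest member per length at 0.41 CPM per kb and differed by 0.11 (adjusted p = 0.848). Their groups overlapped almost fully.

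Surface proteins did not share a direction, with 1 of 3 above 0 and a median of -0.16, and none of the 3 passed the test. Dner, a neuronal transmembrane protein of the Notch ligand type, was the most abundant per length, 56.0 CPM per kb. It was at 99.3, 161 and 331 CPM in null and 124, 220 and 337 CPM in wild-type tumors, a difference of -0.42 (SE 0.24, adjusted p = 0.227). Ncam1, the adhesion molecule CD56 used in diagnosis, was at 114, 149 and 497 CPM in null and 133, 199 and 298 CPM in wild-type tumors, a difference of -0.16 (SE 0.29, adjusted p = 0.734). For Ncam1, 8 of the 9 null tumors lay at or below 169 CPM, and null tumor 5 alone was above all wild-type tumors. L1cam, an axonal adhesion molecule, differed by 0.53 (SE 0.37, adjusted p = 0.330).

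All 5 cytoskeleton and growth cone genes lay below 0 in the null tumors, with a median of -0.88, and none of the 5 passed the test. The median was -1.57 without null tumor 5 and -0.54, with 4 of 5 below 0, with length and GC offsets. With the share of multiply aligned reads as a covariate 3 of 5 lay below 0 (median -0.73). Tubb3, the neuronal beta-tubulin, was at 1.93, 9.47 and 198 CPM in null and 2.79, 55.8 and 229 CPM in wild-type tumors (lowest, median, highest). Null tumor 5 was the second highest of the 16 tumors, null tumor 6 followed at 29.5 CPM among null tumors, and the other 7 null tumors were at or below 15.1 CPM. In the wild-type group, tumors 1, 5, 6 and 7 were at 55.8 CPM or more and tumors 2, 3 and 4 at 22.9 CPM or less. The difference was -1.45 (SE 0.92, adjusted p = 0.285) with all tumors and -3.06 (adjusted p = 0.0116) without null tumor 5.

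Stmn2, a stathmin of growing axons, was at 0.67, 1.82 and 6.05 CPM in null and 0.23, 2.68 and 64.1 CPM in wild-type tumors. The group means, 2.52 ± 1.63 CPM (SD, n = 9) and 12.5 ± 23.1 CPM (SD, n = 7), differed mainly through wild-type tumor 4. The difference was -2.31 (SE 0.83, adjusted p = 0.0654), and -0.62 (adjusted p = 0.556) without that tumor. Gap43, a growth cone protein, was at 0.72, 1.66 and 27.9 CPM in null and 0.47, 10.7 and 30.8 CPM in wild-type tumors, a difference of -0.88 (SE 0.86, adjusted p = 0.50). Both genes showed a few tumors with far higher levels in a field of low values, in either group for Gap43 and in the wild-type group for Stmn2. Stmn3, a related stathmin and the most abundant of the 5 per length at 101 CPM per kb, was at 52.1, 61.6 and 192 CPM in null and 53.5, 120 and 199 CPM in wild-type tumors (difference -0.30, SE 0.34, adjusted p = 0.568). Map2, a microtubule protein of dendrites, differed by -0.13 (SE 0.26, adjusted p = 0.760).

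Peripheral nerve in the samples would carry the same cytoskeleton genes, so its markers are given beside them. Of 6 peripheral neuron markers, Dbh was at or under 0.17 CPM in every tumor, and Chat and Isl1 at or under 1.28 and 1.62 CPM. The sum over the 6 markers ran from 5.34 to 120 CPM in null and from 4.86 to 208 CPM in wild-type tumors, made up of Prph and Th, and 0 of the 2 markers that could be tested passed with all tumors. Prph, a neuronal intermediate filament, was at 1.67, 8.44 and 115 CPM in null and 3.15, 47.8 and 205 CPM in wild-type tumors (difference -1.67, adjusted p = 0.160), with null tumor 5 the highest null tumor as for Tubb3. Without that tumor Prph was called lower (-2.51, adjusted p = 0.0291), as Tubb3 was, and Th was not (-0.52, adjusted p = 0.768). The part of nerve in the cytoskeleton values was not tested. Sox10, which marks Schwann cells, reached at most 0.23 CPM in any tumor.

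The neuronal RNA-binding proteins had 1 of 3 above 0, with a median of -0.33, and none of the 3 passed the test. Celf3, a splicing regulator of neural tissue, was the most abundant per length at 55.4 CPM per kb. It was at 55.7, 195 and 525 CPM in null and 77.2, 106 and 241 CPM in wild-type tumors, a difference of 0.74 (SE 0.36, adjusted p = 0.165). Of the 9 null tumors, 8 lay above the wild-type median and null tumor 5 was the lowest of all 16. The Hu proteins Elavl3 and Elavl4 stabilise neuronal mRNAs and are known targets of autoantibodies in small cell lung cancer. Elavl4 was at 34.3, 57.1 and 417 CPM in null and 74.6, 125 and 219 CPM in wild-type tumors, a difference of -0.33 (SE 0.47, adjusted p = 0.660), and -0.98 (adjusted p = 0.0349) without null tumor 5. Elavl3 was at 36.0, 204 and 456 CPM in null and 62.7, 321 and 462 CPM in wild-type tumors, a difference of -0.59 (SE 0.45, adjusted p = 0.380). Uchl1, the neuronal ubiquitin hydrolase PGP9.5, was at 224, 339 and 528 CPM in null and 196, 407 and 524 CPM in wild-type tumors, a difference of -0.20 (SE 0.22, adjusted p = 0.559). In the reference 20.7% of the exon bases of Uchl1 lie under the antisense gene Uchl1os, so its level is uncertain too.

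**Figure D3:**
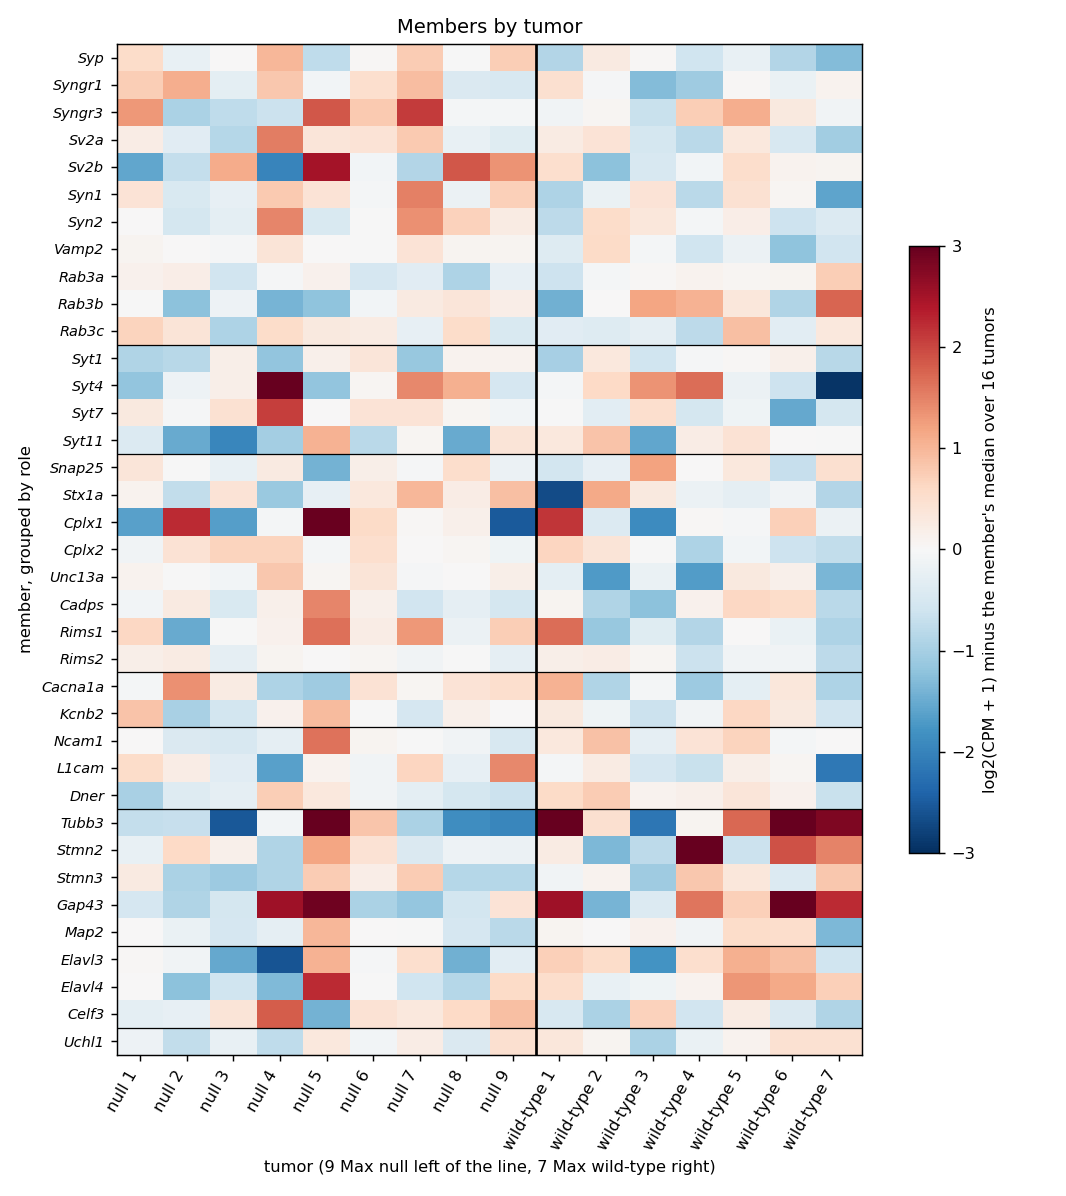
The 37 members (vertical axis, grouped by role) in each of the 16 tumors (horizontal axis), as log2(CPM + 1) minus the member's median over the 16 tumors; red is above and blue below the median, and colours stop at 3 units. No column block separates the 9 null from the 7 wild-type tumors, and null tumors 4 and 5 stand out for different members.

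As a module, the members differed between the groups by less than the spread between tumors. The mean log2 CPM over the 37 members was 5.98 ± 0.29 (SD, n = 9) in the null and 5.95 ± 0.25 (SD, n = 7) in the wild-type tumors, a difference of 0.03, far under either SD. Null tumors ran from 5.58 (tumor 3) to 6.58 (tumor 5) and wild-type tumors from 5.62 (tumor 3) to 6.29 (tumor 5). By role, the vesicle proteins averaged 5.90 ± 0.27 in null and 5.62 ± 0.25 in wild-type tumors, and the SNAREs and release factors 5.90 ± 0.28 and 5.57 ± 0.34. The cytoskeleton genes averaged 3.96 ± 0.91 and 4.83 ± 1.16, and the RNA-binding proteins 7.01 ± 0.48 and 7.27 ± 0.47. Opposite leanings of the roles thus offset each other in the overall mean, with overlap between the groups in each of them. A length and GC correction moved the overall difference to -0.10, and leaving out wild-type tumors 2, 4 and 7 moved it to -0.06, both within the SD of either group.

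**Figure D4:**
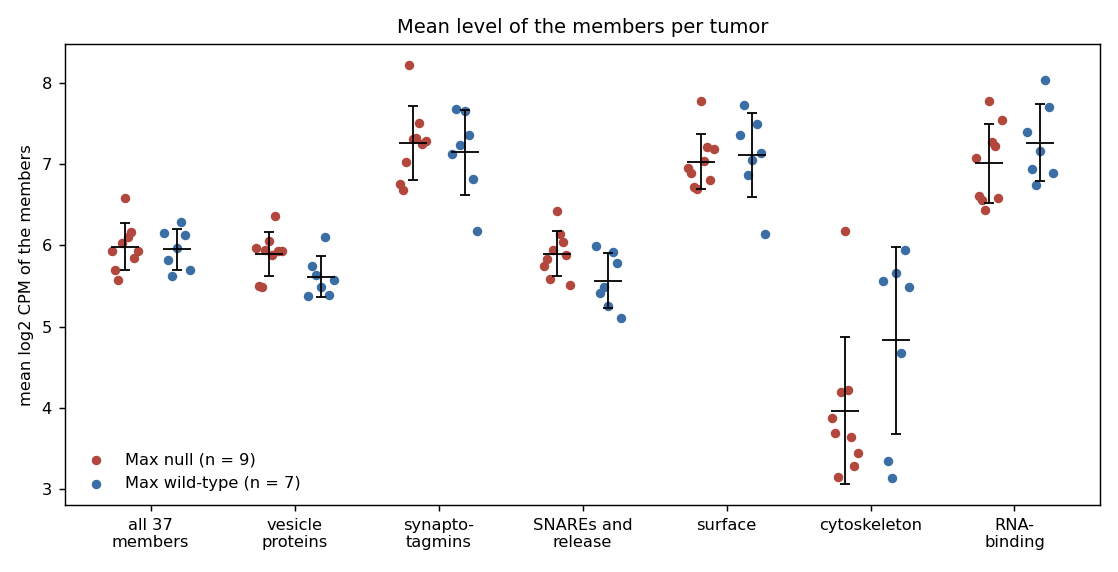
Mean log2 CPM (vertical axis) of all 37 members and of 6 role groups in each tumor; each point is 1 tumor, red for Max null (n = 9) and blue for Max wild-type (n = 7), and bars are mean ± SD. The groups overlap in every column, and null tumor 5 lies above the other null tumors for the cytoskeleton genes.

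The members varied between tumors of 1 group more than genes in general did. The median SD of log2 CPM was 0.72 for members against 0.41 for all genes among null tumors, and 0.66 against 0.59 among wild-type tumors. The steadiest members in the null group were Vamp2 (SD 0.17) and Rims2 (SD 0.18), and the most uneven were Cplx1 (SD 2.07), Tubb3 (SD 1.95), Gap43 (SD 1.84) and Sv2b (SD 1.78). Null tumors 4 and 5 were each the highest of all 16 tumors for 8 members.

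Null tumor 5 was at least 2-fold above the median of the other 8 null tumors for 15 members and at or under 1/2 of it for 6. It had 198 CPM of Tubb3 against a median of 8.67 CPM in the others (22.8-fold), 27.9 CPM of Gap43 against 1.64 CPM (17.1-fold) and 417 CPM of Elavl4 against 57.0 CPM (7.32-fold). Syt11 and Ncam1, both at 497 CPM, and Elavl3, at 456 CPM, were also highest there among null tumors, and so were Cadps at 133 CPM and Map2 at 297 CPM. In the other direction it had the least Celf3 (55.7 CPM), Snap25 (85.7 CPM) and Syp (109 CPM) of the null group. Cplx1 (8.66-fold) and Sv2b (8.28-fold) were also well above the other null tumors, and Cacna1a, Syt4 and Rab3b were at or under 1/2 of their median. All 5 cytoskeleton genes and both Hu genes were at least 2-fold up, while of the 3 surface genes Ncam1 was (3.52-fold) and Dner (1.58-fold) and L1cam (1.02-fold) were not. The same tumor had the lowest neuroendocrine marker sum of the null group (3851 CPM, against 4807 to 8304 CPM in the others), the lowest Rest (2.45 CPM) and the second highest fibroblast marker sum (1101 CPM, null range 274 to 1230 CPM). It also had the highest null sums of macrophage (166 CPM), T cell (17 CPM), B cell (11.6 CPM), cardiac muscle (39.7 CPM), basal cell (7.57 CPM) and peripheral neuron (120 CPM) markers, and the lowest endothelial sum (136 CPM). None of the 6 fibroblast markers passed the test between the groups, and the part of these values in the tumor's pattern was not tested.

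Null tumor 4 departed from the other null tumors in another set. It was at least 2-fold above their median for 7 members and at or under 1/2 for 10. Syt4 stood at 458 CPM against 32.6 CPM (14-fold), Syt7 at 1344 CPM against 363 CPM (3.70-fold) and Celf3 at 525 CPM against 191 CPM (2.75-fold). Low in the same tumor were Sv2b at 1.27 CPM, Elavl3 at 36.0 CPM and L1cam at 25.1 CPM. Gap43 was the 1 member at least 2-fold up in both tumors. Past 2-fold in opposite ways were 7 members, with Syt4 and Celf3 high in tumor 4 and low in tumor 5, and Sv2b, Elavl3, Elavl4, Stmn2 and Syngr3 the reverse.

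**Figure D5:**
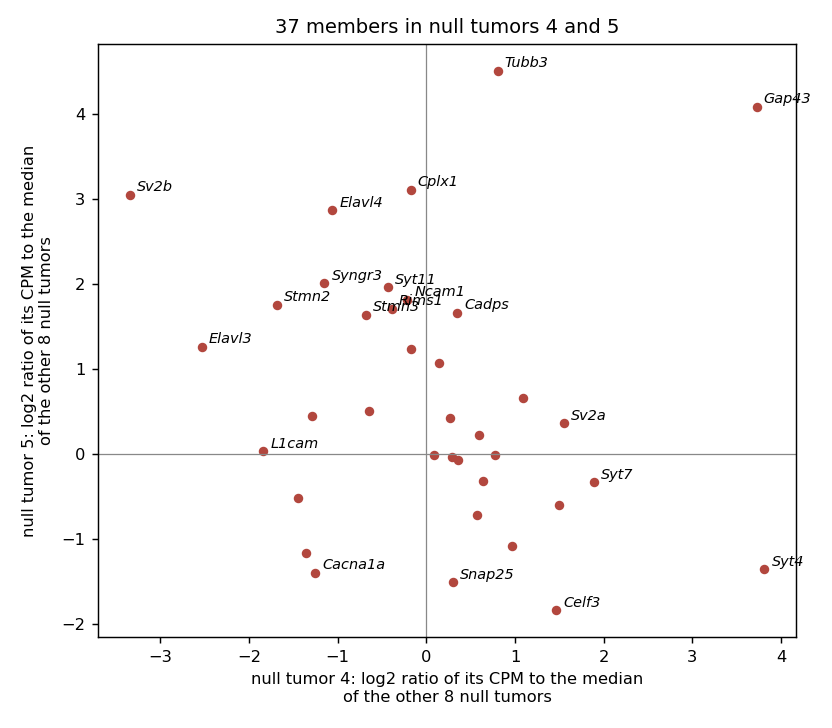
Each point is 1 of the 37 members, placed by the log2 ratio of its CPM to the median of the other 8 null tumors in null tumor 4 (horizontal axis) and null tumor 5 (vertical axis). Gap43 lies high on both axes, Syt4 and Celf3 are high in tumor 4 and low in tumor 5, and Elavl3, Elavl4 and Sv2b are the reverse.

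The count of called members depended on single tumors. Without null tumor 5, 5 members were called against 18.8% of all genes: Syp was higher (log2 difference 0.83, adjusted p = 0.0309), against 8.6% called higher, and Ncam1 (-0.52, adjusted p = 0.0467), Tubb3 (-3.06), Stmn2 (-2.58, adjusted p = 0.0470) and Elavl4 (-0.98) were lower, against 10.2% called lower. Without wild-type tumor 1, Stmn2 alone was called, against 20.3% of all genes. Without wild-type tumor 2 the calls were Syp, Vamp2 and Stmn2, against 11.2%, and without wild-type tumor 3 they were Syp, Syt7 and Stmn2, against 18.5%. Without wild-type tumor 5 they were Unc13a and Stmn2, against 15.4%. In these 4 fits without a wild-type tumor, Stmn2 was lower and the others called were higher in the null tumors. Leaving out any of the other 11 tumors left 0 members called.

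Other genes of the same systems were read from wider lists in the same fit. Of 189 such genes in the files 175 were tested, and 17 (9.71%) were called higher and 9 (5.14%) lower in the null tumors, against 7.4% and 8.64% of all genes. Their median log2 difference was 0.11. With length and GC offsets these lists gave 5 higher and 11 lower (median -0.08), where all 14661 genes tested gave 680 and 818. Without null tumor 5 they gave 15 and 21 (median -0.03), where 8.6% and 10.2% of all genes were called higher and lower. The count of 26 calls fell to 2 without wild-type tumors 2, 4 and 7, when 1.68% of all genes were called, and to 0 with the share of multiply aligned reads as a covariate, when 10 genes in all (0.0675%) were called. Leaving out null tumor 1, 2, 4, 6 or 7 gave 15, 15, 17, 13 and 11 calls, and leaving out wild-type tumor 2, 4, 6 or 7 gave 17, 9, 15 and 16. Over all genes these fits gave 1681, 1625, 1684, 1657 and 1645 calls, and 1669, 1471, 2264 and 1555, against 2378 with all tumors.

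Among 65 other vesicle and release genes, 9 (13.8%) were higher and 1 (1.54%) lower, against 7.4% and 8.64% of all genes. Their median was 0.33. That lean was smaller with length and GC offsets, with 3 higher and 2 lower and a median of 0.16. All 14661 genes tested in that fit gave 680 higher and 818 lower. With the share of multiply aligned reads as a covariate the median of the list was -0.03, with 34 of 65 below 0. Syt14, a synaptotagmin without calcium binding, was at 7.88 to 27.5 CPM in null and 0.86 to 7.2 CPM in wild-type tumors, without overlap (log2 difference 1.74, SE 0.42, adjusted p = 0.0131). Nsf, the ATPase that takes SNARE complexes apart, was higher by 0.60 (adjusted p = 0.0255), from 59.8 ± 11.6 CPM (SD, n = 7) in wild-type to 90.7 ± 23.2 CPM (SD, n = 9) in null tumors. Rimbp2, which links RIM proteins to calcium channels, was higher by 1.98 (adjusted p = 0.0261). These 3 genes, with wild-type tumors 2, 4 and 7 left out, had differences of 1.24, 0.52 and 1.44 (adjusted p = 0.0959, 0.148 and 0.227). With the share of multiply aligned reads as a covariate the differences were 0.74, 0.32 and 1.05.

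Among 33 other voltage-gated channel genes, 4 (12.1%) were higher and 1 (3.03%) lower, against 7.4% and 8.64% of all genes. Their median was 0.46. With length and GC offsets 2 were higher and 2 lower and the median was 0.0075, where all 14661 genes tested gave 680 and 818. The median of the list was 0.18 without wild-type tumors 2, 4 and 7 and 0.12 with the share of multiply aligned reads as a covariate. Cacna1b, the N-type calcium channel of nerve terminals, was at 47.6 to 101 CPM in null and 8.09 to 46.3 CPM in wild-type tumors, without overlap (log2 difference 1.49, SE 0.33, adjusted p = 0.0101). Cacna1c, an L-type channel, was higher by 1.52 (adjusted p = 0.0140), Cacnb1, a channel beta subunit, was higher by 1.04 (adjusted p = 0.0353), and Cacnb4, another beta subunit, was lower by a log2 difference of -1.41 (adjusted p = 0.0247). Of the 16 fits that left out a tumor, Cacna1c was called in 16, Cacnb4 in 15 and Cacnb1 in 6. Cacna1a, the member among these channels, did not pass. The Cacna1b difference was 1.02 (adjusted p = 0.0604) with wild-type tumors 2, 4 and 7 left out.

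Among 26 other cytoskeleton genes 1 (3.85%) was higher and 3 (11.5%) lower, against 7.4% and 8.64% of all genes. Their median was -0.01. Marcks, an actin-binding substrate of protein kinase C, was lower (-0.91, SE 0.23, adjusted p = 0.0174), with 162 to 481 CPM in null and 320 to 644 CPM in wild-type tumors. Dpysl2, a growth cone protein that binds tubulin, was lower (-0.87, adjusted p = 0.0180), as was the heavy neurofilament Nefh (-0.71, adjusted p = 0.0476), while the microtubule-associated kinase Dclk1 was higher (1.42, adjusted p = 0.0414). Of the 16 fits that left out a tumor, Marcks and Dpysl2 were called in 16, Dclk1 in 8 and Nefh in 3. The Dclk1 difference was 0.95 (adjusted p = 0.0650) without null tumor 5, which had 103 CPM. Of 24 adhesion genes, Dlk1, a transmembrane protein related to Notch ligands, was called higher (2.96, adjusted p = 0.0462). The leucine-rich repeat proteins Lrrtm1 (-1.83, adjusted p = 0.0167) and Slitrk6 (-2.35, adjusted p = 0.0469) were lower. Lrrtm1 was called in 16 and Slitrk6 in 4 of the 16 fits that left out a tumor. Dlk1 was unevenly spread, from 0.27 to 43.3 CPM in null and 0.75 to 1.39 CPM in wild-type tumors, and its difference was 1.90 (adjusted p = 0.0967) without null tumor 5. Of 19 RNA-binding genes 1 was called: Elavl1, the ubiquitous Hu protein, was lower (-0.56, SE 0.15, adjusted p = 0.0205), with 98.9 to 165 CPM in null and 133 to 244 CPM in wild-type tumors. Of the adhesion genes 4.17% were called higher and 8.33% lower, and of the RNA-binding genes 0% and 5.26%. The shares of all genes were 7.4% and 8.64%. The medians of the adhesion and RNA-binding lists were -0.03 and -0.31.

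Rest and the genes of its corepressor complexes were read as known regulators of neuronal genes. Rest was at 2.45, 6.13 and 17.3 CPM in null and 1.26, 3.11 and 5.39 CPM in wild-type tumors (lowest, median, highest), a level low in both groups. It was called higher in the null tumors (log2 difference 1.35, SE 0.40, adjusted p = 0.0321), in which 8 of 9 lay above the wild-type median. The Rest difference was 0.97 (adjusted p = 0.158) with length and GC offsets and 1.79 (adjusted p = 0.0778) without wild-type tumors 2, 4 and 7. With the share of multiply aligned reads as a covariate it was 2.20 (adjusted p = 0.127). Of the 8 genes in this list 25% were called higher and 12.5% lower, against 7.4% and 8.64% of all genes. Rcor1, the CoREST scaffold, was also higher (1.24, adjusted p = 0.0426). The demethylase Kdm1a was lower (-1.23, adjusted p = 0.0442), with 110 to 426 CPM in null and 139 to 1179 CPM in wild-type tumors. Kdm1a was called in 5 of the 16 fits that left out a tumor, and its difference was -0.72 (adjusted p = 0.125) without wild-type tumor 1, which had the 1179 CPM. Rest was called in 11 of those fits and Rcor1 in 6. The Rcor1 difference was -0.05 (adjusted p = 0.964) with the share of multiply aligned reads as a covariate.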

How the data were processed

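RNA of 16 lung tumors was sequenced, and the deposited files hold counts, whole numbers of reads per gene symbol, in 1 file per tumor. Per the submitters' processing notes the tools were HTSeq 0.6.1, TopHat, TopHat2 2.0.12 and bcl2fastq 1.8.4 and the build mm9, named without role or order. What annotation, strandedness and read filters were used is not given in the sources used here. The 5 HTSeq totals that name no gene, 29.2% to 45.6% of reads per tumor, stayed out of library sizes and tests. Reads aligned to more than 1 place are in no gene's count, so genes with near-identical copies are uncertain.

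Counts were tested with edgeR 4.0.16 (R 4.3.3): TMM factors, filterByExpr, the quasi-likelihood F test with no covariate, and Benjamini-Hochberg adjustment over 14825 genes at a threshold of 0.05. An SE is the log2 difference divided by the square root of F, and intervals are at 95%. CPM uses TMM-scaled library sizes, and log2 CPM a prior count of 2. Levels per kb use transcript lengths of the GENCODE vM21 annotation. The script was tested on simulated data. Groups come from the labels, and no pair of the 120 pairs of libraries agreed within sampling noise (smallest chi-square 32.8 per degree of freedom). At this depth counting error is small against the spread between tumors for members above a few CPM. It weighs most for Stmn2, Rims1, Kcnb2 and Gap43.

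The members and lists were chosen with earlier results of these data known. All 37 members are named, those most abundant per length in a role or differing in direction from a paralog in full. From each wider list, up to 4 called genes with the smallest p are named, with Rest. Some genes and 1 promoter motif that were examined are not reported here. The fibroblast, peripheral neuron and Schwann cell markers and other genes singled out within tumors were chosen for display after values were seen. Of the other cell type lists, 1 of 6 alveolar type 1, 2 of 6 macrophage, 1 of 5 T cell and 1 of 4 basal cell markers were called, all lower in the null tumors, and 0 markers of the other 12 lists were called.

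Promoter sequences come from RefSeq windows on GRCm38.p6, not the build of the counts. Alternatives were upper-quartile and DESeq2-style factors, limma-voom (limma 3.58.1) with sample weights, DESeq2 1.42.0, no filter, a filter of at least 5 CPM in at least 7 tumors, tumor number as a block, each tumor left out, wild-type tumors 2, 4 and 7 left out, the share of multiply aligned reads as a covariate, and length and GC offsets. Tumor numbers showed little sign of pairing the tumors: same-numbered tumors correlated at -0.17 to 0.24, over 0.1 in 2 of 7 pairs. These correlations cannot settle whether equal numbers mark a shared mouse or batch.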

Additional observations from a re-analysis of the deposited data

Results flagged for a closer look

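In 9 of the 76 sets of values checked (37 members and the module mean, in each group), the highest or lowest tumor stood far from the others of its group by Dixon's ratio of gap to range. Chance alone gives about 1 in 20 such sets. Values are log2 CPM. In null tumor 4, Syt7 was at 10.39, with the next highest null tumor at 8.78. In null tumor 5, Snap25 was lowest at 6.42 (next 7.61), while Cadps was highest at 7.05 (next 5.86), Ncam1 at 8.96 (next 7.41) and Map2 at 8.21 (next 7.23). In null tumor 2, Rims1 was lowest at -0.83 (next 1.43). In wild-type tumor 3, Syt11 was lowest at 6.34 (next 7.90). In wild-type tumor 7, L1cam was lowest at 4.13 (next 5.64) and Map2 was lowest at 5.86 (next 7.11). So 4 of the 9 values belong to null tumor 5 and 2 to wild-type tumor 7, the library with the highest share of multiply aligned reads (22.2%), whose part in them was not tested.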

How the results depend on the processing

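The count of called members, 0, was 2 with DESeq2 and 0 to 5 when each tumor was left out, and 0 in every other alternative. The mean difference of the 37 members, 0.03, ran from -0.046 to 0.095 with each tumor left out, and the difference of mean z-scores was 0.13. The count over all genes, 2378, was 1471 to 3033 with each tumor left out (1471 without wild-type tumor 4 and 1555 without wild-type tumor 7), and 256 without wild-type tumors 2, 4 and 7, 10 with the share of multiply aligned reads as a covariate and 1498 with length and GC offsets. For the wider lists these counts were 9 to 36, 2, 0 and 16, against 26.

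Tumor number as a replicate block, on tumors 1 to 7 of each group, gave 278 calls over all genes, 2 in the wider lists (Cacna1b and Cacna1c) and 0 among members. The same 14 tumors without the block, chosen after seeing the data, gave 1450, 14 and 0. Of the null tumors, 1 correlated best with its own number.

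Of 37 members and 19 other genes examined, scaling changed no direction. With the block, Sv2b became -0.25 and Map2 0.012. With limma-voom, Sv2b became -0.18, Cplx1 -0.28, Snap25 0.0091, Cadps -0.083 and Kcnb2 -0.13. With no filter, Syt1 became 0.013. Without wild-type tumors 2, 4 and 7, Syt1 became 0.052, Cadps -0.0055, Rims1 -0.0047, Rims2 -0.010, Cacna1a -0.080, Kcnb2 -0.10 and Stmn3 0.11. With the multiply aligned share, Cplx1 became -0.49, Cplx2 -0.15, Unc13a -0.041, Cadps -0.15, Rims1 -0.25, Rims2 -0.31, Cacna1a -0.41, Kcnb2 -0.26, L1cam -0.017, Stmn2 1.02, Stmn3 0.39, Uchl1 0.0027 and Rcor1 -0.048. With length and GC offsets, Rab3c became -0.10, Snap25 0.098, Cadps -0.042, Rims2 -0.095, Cacna1a -0.043, Kcnb2 -0.22, Stmn3 0.024 and Uchl1 0.037. With each tumor left out, Syt1 ran from -0.12 to 0.082, Syt4 from -0.26 to 1.21, Snap25 from -0.30 to 0.070, Cplx1 from -0.19 to 1.20, Cadps from -0.067 to 0.40 and Kcnb2 from -0.054 to 0.27. The cause of these changes was not tested.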
